A study of Homo sapiens with 24 samples.

Results

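A set of 9 enzymes that make serine from glucose, interconvert serine and glycine, and pass the carbon so released to folate was followed in SKBR3 cells made senescent by 6 different drugs. The 9 genes, GLDC, PHGDH, PSAT1, PSPH, SHMT1, SHMT2, MTHFD1, MTHFD2 and MTHFD1L, were taken by symbol from the count table, which lists 14493 genes, and all 9 passed the filter on low counts in every comparison. SKBR3 is an established breast cancer cell line with amplified HER2. RNA-seq had been run on 24 libraries in 8 groups of 3. Untreated cells were collected at day 0 and at day 7, and their labels name no refeed. The other 6 groups were therapy-induced senescence (TIS) cultures, refed at day 3 and collected at day 7. They had received ND-646 at 250 nmol/L, an inhibitor of acetyl-CoA carboxylase (ACC), or TVB-3166 at 250 nmol/L, an inhibitor of fatty acid synthase (FASN). The remaining agents were bleomycin at 10 µmol/L and doxorubicin at 10 nmol/L, which damage DNA, palbociclib at 1 µmol/L, which inhibits CDK4/6, and alisertib at 500 nmol/L, which inhibits Aurora kinase A. All groups come from 1 cell line, and nothing in the labels says that the 3 libraries of a group came from separate cultures, so the p-values measure the spread between these libraries.

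Serine is built from a glycolytic intermediate in a short pathway. PHGDH carries out the first and committed step, PSAT1 the transamination that follows, and PSPH removes the phosphate. Serine hydroxymethyltransferase then splits serine into glycine and a carbon unit that is loaded on folate. SHMT1 does this in the cytosol and SHMT2 in mitochondria. GLDC is the glycine decarboxylase of the mitochondrial glycine cleavage system, which breaks glycine down and also yields folate-bound carbon. In mitochondria MTHFD2 oxidizes the carbon unit and MTHFD1L releases it as formate. MTHFD1 handles the same folate intermediates in the cytosol, where they feed the synthesis of purines and thymidylate. Cells that divide need these products for DNA, and some breast cancers express the serine pathway at a high level.

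The genes lie apart from each other in the genome (GRCh37), apart from GLDC and PSAT1, which share a chromosome but stand far from each other on it. GLDC spans chr9:6532467-6645729 on the minus strand and PHGDH chr1:120191034-120286841 on the plus strand. PSAT1 spans chr9:80912041-80945009 (plus), PSPH chr7:56078744-56119297 (minus), SHMT1 chr17:18231174-18266877 (minus) and SHMT2 chr12:57623356-57628718 (plus). MTHFD1 spans chr14:64854749-64930175, MTHFD2 chr2:74413299-74444692 and MTHFD1L chr6:151186815-151423023, all plus. SHMT1, SHMT2, MTHFD1 and MTHFD2 overlap, in that order, the protein-coding genes SMCR8, NDUFA4L2, ZBTB25 and SLC4A5 on the opposite strand. Whether counting used strand is not given in the sources used here, so reads of the shared stretches cannot be assigned with certainty. PSPH also has a pseudogene copy, which makes its counts uncertain.

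Promoter sequence is shown for the genes that moved most, to let the upstream regions of a riser and of the fallers be read side by side. The lines run 5′ to 3′ on the strand of the gene, from GRCh37, within 250 bases before the start of the MANE Select transcript. For PHGDH, SHMT2 and MTHFD1 the match is shown with up to 10 bases on either side. Capitals mark a match to one of the motifs named in the next paragraph.
GLDC, chr9:6645730-6645849: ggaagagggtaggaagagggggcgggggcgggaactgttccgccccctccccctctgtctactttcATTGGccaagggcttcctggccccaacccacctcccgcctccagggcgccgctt
SHMT1, chr17:18266878-18266984: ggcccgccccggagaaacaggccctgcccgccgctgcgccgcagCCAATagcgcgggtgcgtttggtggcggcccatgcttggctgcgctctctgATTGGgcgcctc
PSAT1, chr9:80911921-80912040: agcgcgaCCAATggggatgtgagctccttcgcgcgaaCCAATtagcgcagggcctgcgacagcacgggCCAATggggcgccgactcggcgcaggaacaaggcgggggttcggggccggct
PHGDH, chr1:120254476-120254500: gtatttccgtCCAATcaaaaggaga
SHMT2, chr12:57623437-57623464: tcccgttagcTTTGGCGCctcagcgagc
MTHFD1, chr14:64855046-64855070: agtccctaagCACGTGggttgggtt

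The search covered the 250 bases before the start site of 18921 protein-coding genes, on both strands. The letters CCAAT of the CCAAT box, which the other strand shows as ATTGG, occurred in 7 of the 9 enzymes and in 34.3% of all windows. PSAT1 held 3 matches, at 113, 83 and 52 bases before its start, and SHMT1 held a pair at 76 and 25 bases. The amino acid response element TGATGNAA occurred in 0 of the 9 windows and in 2.18% of all. The E-box CACGTG occurred in MTHFD1 alone among the 9, 15 bases before its start, and in 7.90% of all windows. The E2F-type letters TTTNNCGC occurred in SHMT2 alone, 47 bases before its start, and in 7.61% of all windows. No motif set genes that rose apart from genes that fell: CCAAT was in the windows of PSAT1 and PHGDH as well as in those of GLDC, SHMT1 and MTHFD1. A match of letters is a description of the window and not a bound site.

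The libraries held 29405121 to 44316330 counts. The 9 enzymes together took between 0.0969% and 0.15% of the counts of a library. Levels are given as CPM, the counts of a gene scaled to library size with TMM factors. Of 7 markers of SKBR3, 6 were in the table, with ERBB2 (HER2) at a mean of 5688 to 8270 CPM by group, and CDH1 was not analysed here. Of 9 markers of stromal, immune and endothelial cells, 3 were in the table, with a summed level of 17.2 to 66.7 CPM in any library. CD68, a lysosomal protein of macrophages and of other cells, made up most of the rise in that sum, from a mean of 5.39 CPM at day 0 to 46.9 with ND-646, 28.5 with TVB-3166 and 42.1 with bleomycin. Its part in the results was not tested. By distance over all genes ND-646 replicate 1 stood apart, farther from both other replicates of its group (82 and 85.3) than any other pair of replicates was. By chi-square per degree of freedom, untreated day-0 replicate 1 also differed from its partners (183 and 183, against 157 and 171 for ND-646 replicate 1). Without ND-646 replicate 1, all 6 calls of the enzymes with ND-646 against day 0 and all 6 against day 7 held. GLDC was then at −2.62 against day 0, SHMT1 at −1.74, MTHFD1 at −1.08, PSAT1 at 1.03, MTHFD2 at −0.06, MTHFD1L at 0.06 and PSPH at −0.12. Without untreated day-0 replicate 1, MTHFD1L was no longer called with palbociclib, while PHGDH was called higher with TVB-3166 (0.36, adjusted p = 0.00588) and bleomycin (0.45, adjusted p = 0.0434), and GLDC lower with palbociclib (−0.30, adjusted p = 0.0375).

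In untreated day-0 cells the mitochondrial SHMT2 was the most abundant of the 9 per length of transcript, at 111.0 ± 6.01 RPKM (CPM per kilobase of exon, mean ± SD, n = 3). MTHFD1 followed at 83.4 ± 1.37 RPKM, PHGDH at 81.0 ± 10.2, MTHFD2 at 59.3 ± 1.86 and PSAT1 at 57.2 ± 2.99. SHMT1 at 19.0 ± 1.24 RPKM, PSPH at 18.7 ± 0.279 and GLDC at 14.9 ± 1.06 formed a lower tier, and MTHFD1L was lowest at 9.22 ± 0.431. Across the 8 groups the ratio of the highest to the lowest mean was 7.03 for GLDC, 3.64 for PHGDH, 3.41 for SHMT1, 2.39 for PSAT1, 2.22 for MTHFD1 and 2.12 for SHMT2. It was 1.61 for MTHFD1L, 1.37 for PSPH and 1.36 for MTHFD2. For 6 of the 9 genes one end of this range was the ND-646 group.

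**Figure D1:**
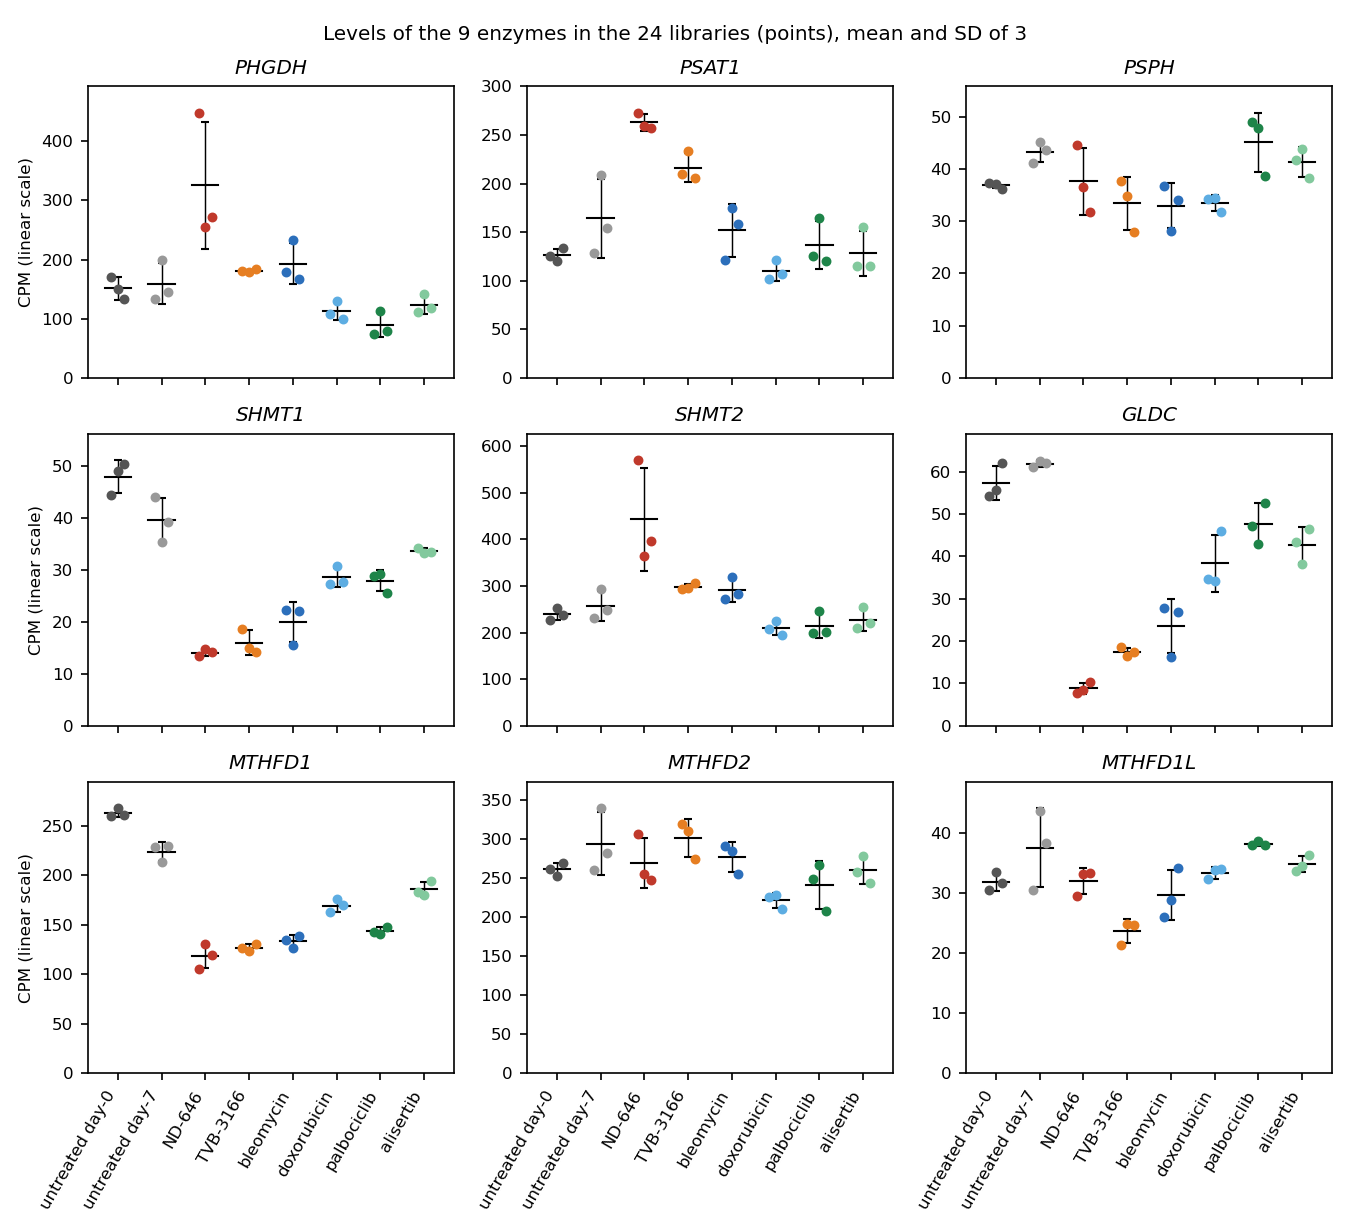
Level of each enzyme in CPM (vertical axis, linear, from 0) in the 24 libraries by group (horizontal axis); points are libraries, bars the mean and whiskers the SD of 3. GLDC, SHMT1 and MTHFD1 step down from untreated cells to ND-646, while PHGDH, PSAT1 and SHMT2 are highest in ND-646 (means 325.4, 262.9 and 443.4 CPM).

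The paper lists GLDC, from these same data, with the genes most lowered by ND-646 and TVB-3166. GLDC, the decarboxylase that opens glycine breakdown, showed the widest change of the 9. Its level was 54.4, 55.6 and 61.9 CPM in the untreated day-0 libraries and 61.0, 62.6 and 62.0 in the day-7 libraries. It was 7.75, 8.36 and 10.3 CPM with ND-646 and 18.5, 16.4 and 17.3 with TVB-3166. All 6 libraries of the lipogenesis inhibitors thus lay far below the 6 untreated ones, and those of ND-646 lay below those of TVB-3166. The fall against day 0 was −2.71 ± 0.17 (log2 fold-change ± SE, adjusted p = 1.67e-05, edgeR) with ND-646 and −1.71 ± 0.10 (adjusted p = 5.89e-07) with TVB-3166, levels of 0.153 and 0.305 of untreated cells. Bleomycin TIS came next, at 27.7, 16.3 and 26.8 CPM, a fall of −1.28 ± 0.18 (adjusted p = 0.000482), and its libraries overlapped those of TVB-3166. Doxorubicin fell by less, −0.57 ± 0.13 (adjusted p = 0.00468), as did alisertib, −0.43 ± 0.10 (adjusted p = 0.00847). Palbociclib libraries, at 47.1, 42.8 and 52.7 CPM, were all below day 0 but did not pass, at −0.27 ± 0.11 (adjusted p = 0.0524). Against day 7 GLDC was called lower in all 6 drug groups, from −2.82 ± 0.15 with ND-646 to −0.37 ± 0.09 with palbociclib (adjusted p = 0.00691). The palbociclib call was lost in one fit to all 24 libraries (adjusted p = 0.0591). In RNA from whole cultures, a fall in every cell and a smaller share of cells with the transcript cannot be told apart.

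The partners of GLDC in the glycine cleavage system moved far less. DLD, the lipoamide dehydrogenase that it shares with other complexes, fell by 0.52 with ND-646 and 0.30 with TVB-3166 against day 0 on the log2 scale. GCSH, the lipoyl carrier protein, which has pseudogene copies, was at −0.32 with ND-646 without passing the test and fell by 0.51 with TVB-3166. AMT was not analysed here. With ND-646, GLDC therefore changed by −2.71 where its measured partners changed by −0.52 and −0.32.

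The 3 enzymes of serine synthesis did not move as a unit. PHGDH was at 171, 150 and 133 CPM at day 0 and at 449, 256 and 272 CPM with ND-646, so that every ND-646 library lay above every untreated one, including the day-7 libraries at 134, 199 and 146. The rise against day 0 was 1.09 ± 0.23 (adjusted p = 0.00563), a 2.13-fold level, and it was 0.80 (adjusted p = 0.000452) without ND-646 replicate 1. With TVB-3166, PHGDH was at 180, 178 and 183 CPM, all 3 above day 0, and did not pass at 0.26 ± 0.10 (adjusted p = 0.0527). PHGDH was called there by DESeq2 (adjusted p = 0.0371), with RLE size factors (0.0471) and with a floor of 10 counts in each library (0.0379). With bleomycin it was at 179, 233 and 167 CPM, overlapping day 0 (0.36 ± 0.15, adjusted p = 0.0677), and DESeq2 called it (adjusted p = 0.0482). PHGDH fell with palbociclib, to 74.7, 114 and 79.8 CPM (−0.76 ± 0.15, adjusted p = 0.00167), and with doxorubicin, to a mean of 113 CPM (−0.41 ± 0.12, adjusted p = 0.0175). The first enzyme of the pathway was thus higher than in untreated cells with the ACC inhibitor and lower with palbociclib and doxorubicin, against both untreated groups. The doxorubicin call was lost without doxorubicin replicate 1 or 3 (adjusted p = 0.066 and 0.078 against day 0, 0.0513 and 0.0549 against day 7), and in one fit to all 24 libraries (adjusted p = 0.0819 and 0.0555).

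PSAT1, the transaminase, was at 125, 120 and 133 CPM at day 0. It was at 273, 259 and 257 CPM with ND-646 and at 210, 233 and 206 with TVB-3166, and these 6 libraries did not overlap day 0 or any library of the other 4 drugs. The rises against day 0 were 1.05 ± 0.13 (adjusted p = 0.000452) and 0.78 ± 0.09 (adjusted p = 4.77e-05). In the other 4 TIS groups the means were 110 to 152 CPM and none passed against day 0. Untreated day-7 cells spread widely, at 129, 209 and 154 CPM, and the rises against them were smaller, 0.67 ± 0.18 (adjusted p = 0.0213) with ND-646 and 0.40 ± 0.14 (adjusted p = 0.0354) with TVB-3166. Day-7 replicate 2 overlapped the TVB-3166 libraries. That call of PSAT1 with TVB-3166 was lost without any 1 TVB-3166 library or without day-7 replicate 1 or 3 (adjusted p of 0.0507 to 0.118), and was 0.61 (adjusted p = 0.000606) without day-7 replicate 2. PSAT1 fell with doxorubicin against day 7 (−0.55 ± 0.14, adjusted p = 0.0085).

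PSPH, the last enzyme of the pathway, stayed in a narrow range. Its group means ran from 33.0 CPM with bleomycin to 45.1 CPM with palbociclib, and all but one pair of neighbours in that order overlapped, the pair being untreated day-0 and doxorubicin. It was at 37.2, 37.1 and 36.2 CPM at day 0 and at 44.5, 36.5 and 31.7 CPM with ND-646 (0.01 ± 0.16, adjusted p = 0.949). Against day 0 it was called in 1 drug group, palbociclib, at 0.29 ± 0.11 (adjusted p = 0.0428), a call lost without palbociclib replicate 1 or 2 or day-0 replicate 2 or 3 (adjusted p of 0.0756 to 0.166) and in one fit to all 24 libraries (0.0608). Against day 7, where untreated cells were at 41.1, 45.1 and 43.5 CPM, PSPH fell with TVB-3166, bleomycin and doxorubicin by 0.37, 0.38 and 0.35 on the log2 scale. With ND-646 it was at −0.21 (adjusted p = 0.305), and was called lower, at −0.35 (adjusted p = 0.0151), without ND-646 replicate 1. The TVB-3166 call was lost without TVB-3166 replicate 3 (adjusted p = 0.0622), and the bleomycin call without bleomycin replicate 2 or 3 or day-7 replicate 2 or 3 (adjusted p of 0.0545 to 0.0769).

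The cytosolic and the mitochondrial hydroxymethyltransferase went opposite ways under the lipogenesis inhibitors. SHMT1 was at 44.4, 49.0 and 50.4 CPM at day 0, and at 13.4, 14.7 and 14.2 with ND-646, a fall of −1.78 ± 0.14 (adjusted p = 4.91e-05). With TVB-3166 it was at 18.7, 15.03 and 14.2 CPM (−1.58 ± 0.12, adjusted p = 2.64e-06), and with bleomycin at 22.3, 15.5 and 22.1 (−1.26 ± 0.15, adjusted p = 0.000203). These 3 groups overlapped each other at neighbouring places in the order. SHMT1 also fell with palbociclib (−0.78 ± 0.10), doxorubicin (−0.74 ± 0.10) and alisertib (−0.51 ± 0.09), so that all 6 drug groups were called lower against day 0. Against day 7, when untreated cells were at 43.98, 35.3 and 39.3 CPM, 5 of the 6 were called lower, from −1.499 ± 0.14 with ND-646 to −0.45 ± 0.10 with doxorubicin, and alisertib was at −0.22 ± 0.09 (adjusted p = 0.121).

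SHMT2 was at 228, 253 and 237 CPM at day 0 and at 570, 364 and 396 CPM with ND-646. All ND-646 libraries lay above all others of the study. The rise was 0.87 ± 0.19 (adjusted p = 0.00676) against day 0 and 0.66 (adjusted p = 0.00062) without ND-646 replicate 1. With TVB-3166, SHMT2 was at 293, 295 and 305 CPM, a smaller rise of 0.32 ± 0.09 against day 0 (adjusted p = 0.0111) that was lost in one fit to all 24 libraries (adjusted p = 0.0569). It was at 0.21 ± 0.09 against day 7 (adjusted p = 0.0788), where libraries overlapped. Bleomycin was at 271, 320 and 282 CPM, above day 0 in all 3 libraries, and did not pass (0.29 ± 0.11, adjusted p = 0.0534), though SHMT2 was called there by DESeq2 (0.0297), with RLE size factors (0.0455) and with a floor of 10 counts in each library (0.0401). The other 3 drug groups were at means of 209 to 228 CPM. Of these, doxorubicin was called lower against day 7 (−0.28 ± 0.10, adjusted p = 0.0399), a call lost without doxorubicin replicate 1 or 3 or day-7 replicate 2 or 3 (adjusted p of 0.0612 to 0.125) and in one fit to all 24 libraries (0.0938).

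The ratio of SHMT2 to SHMT1 reads per kilobase brought both changes together. It was 6.01, 6.06 and 5.51 in the day-0 libraries and 6.17, 9.72 and 7.39 at day 7. With ND-646 it was 49.95, 29 and 32.8, with TVB-3166 18.3, 23.0 and 25.2, and with bleomycin 14.2, 24.1 and 14.96. The ratios with doxorubicin, palbociclib and alisertib were between 7.15 and 9.86. The mean ratio was thus 37.3 with ND-646 against 5.86 at day 0, and no library of ND-646, TVB-3166 or bleomycin overlapped an untreated one. With 3 libraries a group an exact permutation test cannot go below p = 0.1, and no test of the ratio was run.

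**Figure D2:**
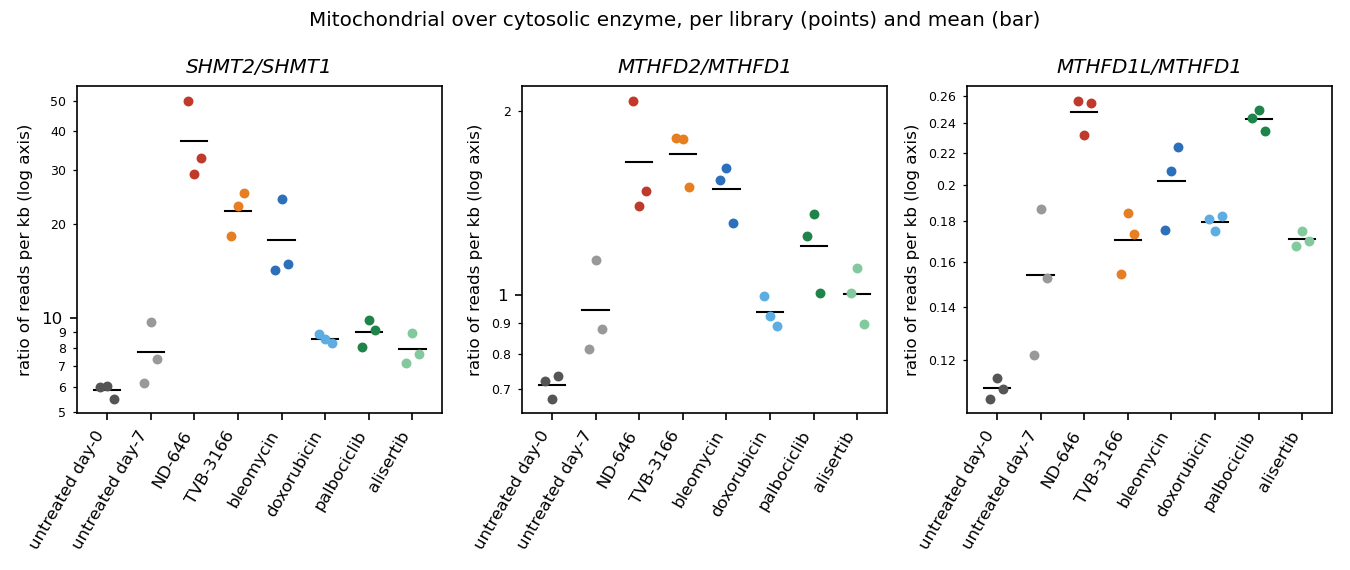
Ratio of the mitochondrial to the cytosolic enzyme in reads per kilobase (vertical axis, log scale) by group (horizontal axis), for SHMT2 over SHMT1, MTHFD2 over MTHFD1 and MTHFD1L over MTHFD1; points are libraries and bars means of 3. The mean SHMT2 to SHMT1 ratio goes from 5.86 in untreated day-0 cells to 37.3 with ND-646, and MTHFD2 to MTHFD1 from 0.712 to 1.65.

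MTHFD1, the cytosolic trifunctional enzyme, fell in every drug group against both untreated groups, with little spread within groups. It was at 260, 268 and 262 CPM at day 0 and at 229, 213 and 230 at day 7. With ND-646 it was at 106, 131 and 120 CPM (−1.16 ± 0.14 against day 0, adjusted p = 0.000435), with TVB-3166 at 127, 123 and 130 (−1.05 ± 0.09, adjusted p = 3.45e-06) and with bleomycin at 135, 126 and 139 (−0.97 ± 0.09, adjusted p = 7.71e-05). Palbociclib fell to 143, 141 and 148 CPM (−0.87 ± 0.08), doxorubicin to 163, 176 and 170 (−0.62 ± 0.08) and alisertib to 183, 180 and 195 (−0.50 ± 0.08, adjusted p = 0.00125). The groups thus ran down from alisertib to ND-646 in steps that mostly did not overlap, the exceptions being ND-646 with TVB-3166 and TVB-3166 with bleomycin. Against day 7 the alisertib fall was −0.25 ± 0.07 (adjusted p = 0.0285), a call lost without any 1 alisertib library or without day-7 replicate 1 or 3 (adjusted p of 0.0548 to 0.111).

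The mitochondrial MTHFD2, the dehydrogenase that pairs with SHMT2, changed little. Its group means ran from 222 CPM with doxorubicin to 301 with TVB-3166, and every neighbouring pair of groups in that order overlapped. With ND-646 it was at 306, 255 and 248 CPM against 262, 253 and 269 at day 0 (0.03 ± 0.14, adjusted p = 0.883). MTHFD2 fell with doxorubicin, by 0.23 against day 0 (adjusted p = 0.0435) and by 0.39 against day 7 (adjusted p = 0.00815) on the log2 scale. The first of these calls was lost without any 1 of the doxorubicin libraries or day-0 replicate 2 or 3, with adjusted p of 0.0648 to 0.159, in one fit to all 24 libraries (0.0831) and with a floor of 10 counts in each library (0.0625). With MTHFD1 lower and MTHFD2 near its untreated level, the MTHFD2 to MTHFD1 ratio per kilobase was 0.723, 0.676 and 0.737 at day 0 and 2.08, 1.398 and 1.48 with ND-646. It was 1.81, 1.80 and 1.51 with TVB-3166 and 1.54, 1.62 and 1.31 with bleomycin, all above every untreated library. Palbociclib was at 1.25, 1.355 and 1.01, doxorubicin at 0.995, 0.925 and 0.89, and alisertib at 1.01, 1.105 and 0.896. These groups overlapped the untreated day-7 libraries, at 0.816, 1.14 and 0.88.

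MTHFD1L, which releases formate in mitochondria, separated the lipogenesis inhibitors from each other by level. It was at 30.5, 33.4 and 31.6 CPM at day 0, at 29.6, 33.1 and 33.4 with ND-646 and at 21.4, 24.9 and 24.7 with TVB-3166. TVB-3166 libraries lay below those of every other group, a fall of −0.42 ± 0.11 against day 0 (adjusted p = 0.00622) and −0.66 ± 0.13 against day 7 (adjusted p = 0.00137). ND-646 was at −0.00 ± 0.14 against day 0 (adjusted p = 0.994). Palbociclib rose to 38.0, 38.6 and 38.0 CPM (0.26 ± 0.09, adjusted p = 0.0332). That call was lost without any 1 palbociclib library or day-0 replicate 1 or 3 (adjusted p of 0.0596 to 0.0864). It was also lost in one fit to all 24 libraries (0.0567). The mean MTHFD1L to MTHFD1 ratio per kilobase was 0.1105 at day 0 and 0.154 at day 7. It was 0.248 with ND-646, 0.243 with palbociclib, 0.203 with bleomycin, 0.18 with doxorubicin, 0.171 with TVB-3166 and 0.171 with alisertib.

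The calls were counted over the 9 genes. Against day 0, ND-646 called 3 genes higher (PHGDH, PSAT1 and SHMT2) and 3 lower (GLDC, SHMT1 and MTHFD1), where 19.1% of all genes tested were called higher and 18.8% lower. TVB-3166 called 2 higher (PSAT1 and SHMT2) and 4 lower (GLDC, SHMT1, MTHFD1 and MTHFD1L), against 27.4% higher and 27.7% lower over all genes, and DESeq2 called 3 higher. Palbociclib called 2 higher (PSPH and MTHFD1L) and 3 lower (PHGDH, SHMT1 and MTHFD1), against 26.0% and 27.2% over all genes. No gene was called higher with the other 3 drugs. Bleomycin called 0 higher and 3 lower (GLDC, SHMT1 and MTHFD1), against 24.1% and 25.3% over all genes, and 2 members were higher at an unadjusted p under 0.05 and by DESeq2. Doxorubicin called 0 higher and 5 lower, against 23.7% and 24.8%, and alisertib 0 higher and 3 lower, against 17.7% and 19.6%. Neither had a member higher at an unadjusted p under 0.05 or by DESeq2. With so few genes, most of these counts lie near the shares over all genes, and no test set the drug groups' counts against each other.

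Time in culture by itself moved no member past the threshold. Between untreated day-7 and day-0 cells edgeR called 0 of the 9 in either direction, as did DESeq2, and 2 were higher and 2 lower at an unadjusted p under 0.05. Over all genes 0.389% were called higher and 0.198% lower. The largest difference was that of PSAT1, 0.39 ± 0.15 (adjusted p = 0.159), and MTHFD1 and SHMT1 were lower in all 3 day-7 libraries than in any day-0 library without passing (−0.22 and −0.27). PSPH was likewise higher in all 3 without passing (0.24).

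**Figure D3:**
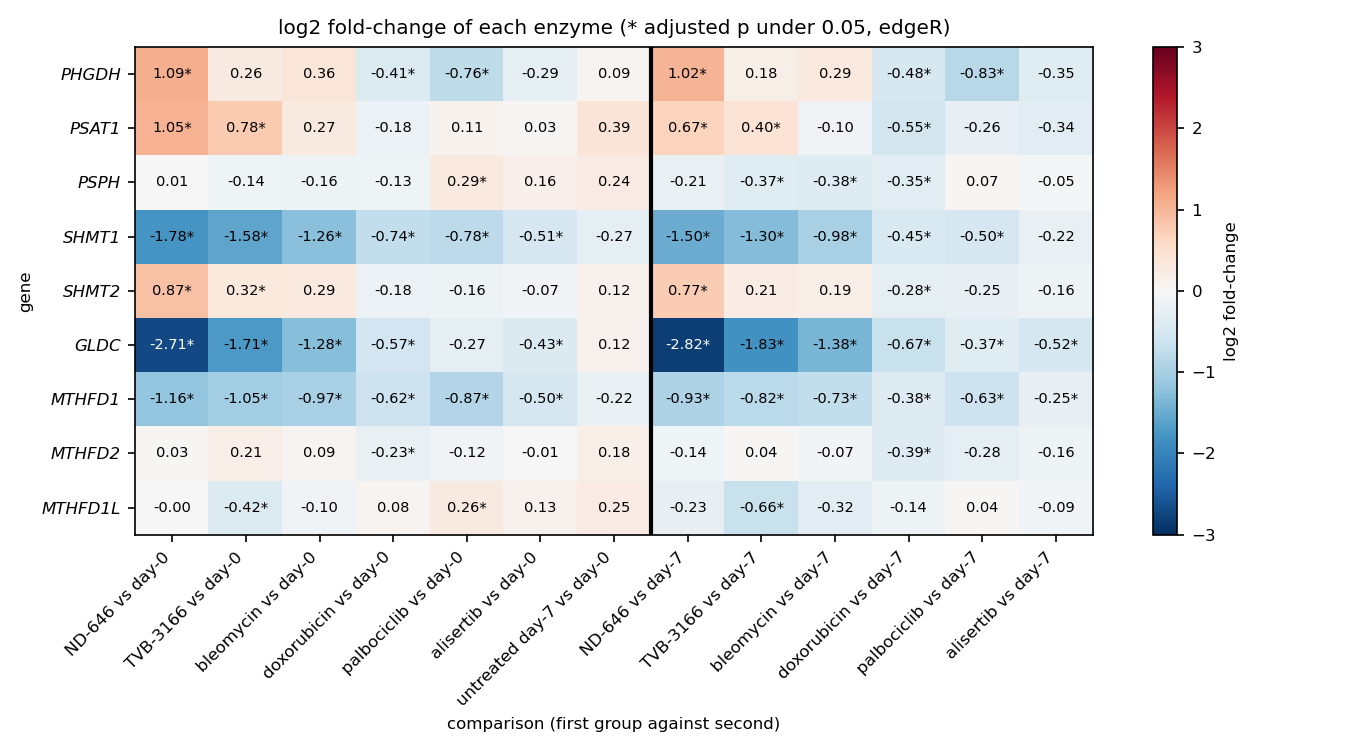
Log2 fold-change of the 9 enzymes (rows) in each drug group and in day-7 cells against untreated day-0 cells (left of the line) and in each drug group against untreated day-7 cells (right of it); colour gives the value and an asterisk an adjusted p under 0.05. MTHFD1 is called lower in all 12 drug comparisons, and GLDC runs from −2.82 to −0.27.

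Untreated day-7 cells were collected on the same day as the drug groups. Their labels name no refeed, while those of the drug groups name a refeed at day 3, so drug and refeeding cannot be told apart here. Against day 7 the same 3 genes were called higher with ND-646 and the same 3 lower as against day 0. Over all genes 17.2% were called higher and 17.1% lower. The 3 higher calls were lost without day-7 replicate 1 or 3. The adjusted p was then 0.0677 and 0.0643 for PHGDH, 0.0809 and 0.0975 for PSAT1, and 0.0749 and 0.0736 for SHMT2. The log2 fold-changes were between 0.52 and 0.95. In those fits 21.6% and 19.6% of all genes were called, against 34.2% with every library kept, so the loss was not particular to these genes. The PSAT1 call was also lost without ND-646 replicate 2 (adjusted p = 0.0515). TVB-3166 called 1 higher (PSAT1) and 5 lower (GLDC, PSPH, SHMT1, MTHFD1 and MTHFD1L), against 25.4% and 26.1% over all genes. Doxorubicin called 8 of the 9 lower, all but MTHFD1L, and 0 higher, against 21.5% and 21.9% over all genes. Leaving out day-7 replicate 2 moved its PHGDH value from −0.48 to −0.30 and its PSAT1 value from −0.55 to −0.36, both still called. Palbociclib called 4 lower (GLDC, PHGDH, SHMT1 and MTHFD1) and 0 higher, against 22.9% and 22.0%.

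Bleomycin called 4 lower (GLDC, PSPH, SHMT1 and MTHFD1) and 0 higher against day 7, where 23.2% of all genes were called lower and 22.4% higher. Alisertib called 2 lower (GLDC and MTHFD1) and 0 higher, against 9.49% lower and 9.55% higher. In these 2 comparisons same-numbered libraries deviated together weakly (correlations over 0.1 in all 3 pairs), though no label says that the numbers pair libraries. With the number as a block more members passed, as did more genes in all (48.6% against 45.6% for bleomycin, 30% against 19% for alisertib). With the block, bleomycin called 2 higher, PHGDH at 0.30 (adjusted p = 0.0158) and SHMT2 at 0.19 (adjusted p = 0.0482), and 5 lower, MTHFD1L at −0.32 (adjusted p = 0.0466) being added. Alisertib called 4 lower with the block, PHGDH at −0.34 (adjusted p = 0.00239) and PSAT1 at −0.33 (adjusted p = 0.00406) being added. Without the block no member was higher at an unadjusted p under 0.05 or by DESeq2 in the bleomycin, doxorubicin, palbociclib and alisertib comparisons with day 7.

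The lipogenesis inhibitors were also set directly against the other 4 inducers, in a contrast of the 18 drug-treated libraries that uses no untreated library. It called 8 of the 9 members, 4 higher and 4 lower, where 26.1% of all genes were called higher and 24% lower. PHGDH was higher by 0.97 ± 0.12 (adjusted p = 4.24e-06), PSAT1 by 0.87 ± 0.09 (adjusted p = 5.17e-07), SHMT2 by 0.64 ± 0.09 (adjusted p = 1.13e-05) and MTHFD2 by 0.20 ± 0.07 (adjusted p = 0.0205). GLDC was lower, at −1.57 ± 0.11 (adjusted p = 1.59e-08), as were SHMT1 at −0.84 ± 0.08 (adjusted p = 4e-07), MTHFD1 at −0.35 ± 0.05 (adjusted p = 2.46e-05) and MTHFD1L at −0.29 ± 0.06 (adjusted p = 0.00087). PSPH was at −0.09 ± 0.09 (adjusted p = 0.415). The contrast compares means of unlike groups, and only for PSAT1 did the 6 libraries lie apart from the other 12. For GLDC, SHMT1 and MTHFD1 bleomycin lay next to TVB-3166. For PHGDH the bleomycin mean (193.2 CPM) was above that of TVB-3166 (180.6 CPM), and for SHMT2 the libraries of TVB-3166 and bleomycin overlapped. For MTHFD2 bleomycin (277 CPM) was above ND-646 (269.5 CPM), and for MTHFD1L ND-646 (32.02 CPM) was above bleomycin (29.64 CPM). Without ND-646 replicate 1 the MTHFD2 call was lost (0.14, adjusted p = 0.0558), as it was without TVB-3166 replicate 1 (adjusted p = 0.0622), while PHGDH remained at 0.81 (adjusted p = 1.72e-06) and SHMT2 at 0.53 (adjusted p = 2.37e-06).

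Between the FASN and the ACC inhibitor, GLDC was the 1 member called, higher with TVB-3166 than with ND-646 by 0.99 ± 0.16 (adjusted p = 0.0483), where 0.520% of all genes were called higher and 0.198% lower. No member was called lower by edgeR, 4 were lower at an unadjusted p under 0.05, and DESeq2 called 2 lower. Those 4 were PHGDH at −0.84 ± 0.21 (adjusted p = 0.12), SHMT2 at −0.56 ± 0.18 (adjusted p = 0.205), MTHFD1L at −0.43 ± 0.13 (adjusted p = 0.191) and PSAT1 at −0.27 ± 0.11 (adjusted p = 0.3), and in each the 3 TVB-3166 libraries lay below the 3 of ND-646. ND-646 replicate 1, high in PHGDH and SHMT2, decides much of this: without it PHGDH was called at −0.54 (adjusted p = 0.00266), SHMT2 at −0.35 (adjusted p = 0.0214), MTHFD1L at −0.48 (adjusted p = 0.0169) and GLDC at 0.91 (adjusted p = 0.00355). Without that library 11% of all genes were called, against 0.717% with every library kept. The GLDC call was lost without any 1 of the other 5 libraries (adjusted p of 0.0739 to 0.241), with values between 0.95 and 1.12. In each of those 5 fits 0 of all genes tested were called, so the loss was not particular to GLDC. Without a filter on low counts the GLDC call was also lost (adjusted p = 0.0613), with 0.221% of all genes called. Same-numbered libraries deviated together here (correlations of 0.213 to 0.38), though no label pairs them. With the block GLDC was again the 1 member called, at 1.00 (adjusted p = 0.0372), where 2.27% of all genes were called.

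**Figure D4:**
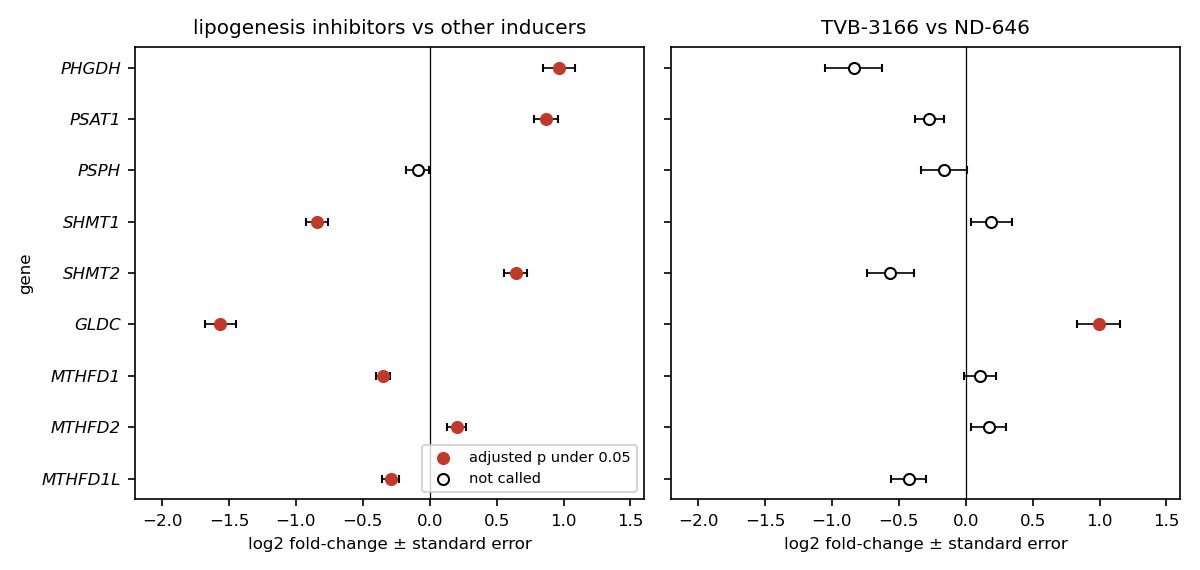
Log2 fold-change with its standard error (horizontal axis) of the 9 enzymes (vertical axis) in the lipogenesis inhibitors against the other 4 inducers (left) and in TVB-3166 against ND-646 (right); filled points have an adjusted p under 0.05. GLDC is lowest on the left (−1.57) and the 1 filled point on the right (0.99).

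Genes around the 9 enzymes were read from lists of related pathways. Of 12 genes of the amino acid response, the ATF4 programme that serine pathway genes are known to belong to, 11 rose and 0 fell against day 0 with ND-646, with TVB-3166 and with bleomycin, with medians of 1.82, 1.48 and 1.47 beside medians near 0 over all genes (0.018, −0.007 and 0.0004). With ND-646 DDIT3 rose by 3.61, DDIT4 by 3.00, SLC7A11 by 2.76 and CHAC1 by 2.69 on the log2 scale. In doxorubicin 9 rose, and in palbociclib and alisertib 8 each, and in none of the 3 did a gene fall. Of all genes 19.1% were called higher with ND-646, 27.4% with TVB-3166, 24.1% with bleomycin, 23.7% with doxorubicin, 26.0% with palbociclib and 17.7% with alisertib. Against day 7 the medians were lower for each drug, with 12 higher for ND-646 (median 1.31), 11 for TVB-3166 (1.09), 9 for bleomycin (0.89), 6 for doxorubicin with 1 lower (0.58), 5 for palbociclib (0.33) and 5 for alisertib (0.24). Over all genes 17.2%, 25.4%, 22.4%, 21.9%, 22.0% and 9.55% were called higher against day 7, in the same order of drugs. Untreated day-7 cells had 2 of the 12 called higher against day 0, with a median of 0.49, where 0.389% of all genes were. In the lipogenesis inhibitors against the other 4 inducers 10 of the 12 were higher and 1, ATF3, lower. The summed level of the list was 7852 to 9884 CPM with ND-646, 5089 to 5259 with TVB-3166, 4947 to 6174 with bleomycin and 2611 to 3689 at day 0.

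GLDC, SHMT1 and MTHFD1 fell beside the proliferation markers. All 9 of these markers fell against day 0 with ND-646, TVB-3166, bleomycin, doxorubicin and palbociclib, with medians of −2.60, −1.73, −1.75, −0.81 and −1.51, and 8 of 9 with alisertib, with a median of −0.54. Over all genes 18.8%, 27.7%, 25.3%, 24.8%, 27.2% and 19.6% were called lower, in the same order of drugs. Among the markers RRM2 fell by 3.87 and MKI67 by 3.70 with ND-646 on the log2 scale. Their summed level was 2537 to 2797 CPM at day 0, 329 to 450 with ND-646, 755 to 1015 with TVB-3166, 516 to 1147 with bleomycin, 633 to 897 with palbociclib, 1443 to 1619 with doxorubicin and 1569 to 2012 with alisertib. Palbociclib, with a marker median of −1.51, had GLDC at −0.27, SHMT1 at −0.78 and MTHFD1 at −0.87. Doxorubicin, with a median of −0.81, had them at −0.57, −0.74 and −0.62. The part of proliferation in the falls was not tested.

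**Figure D5:**
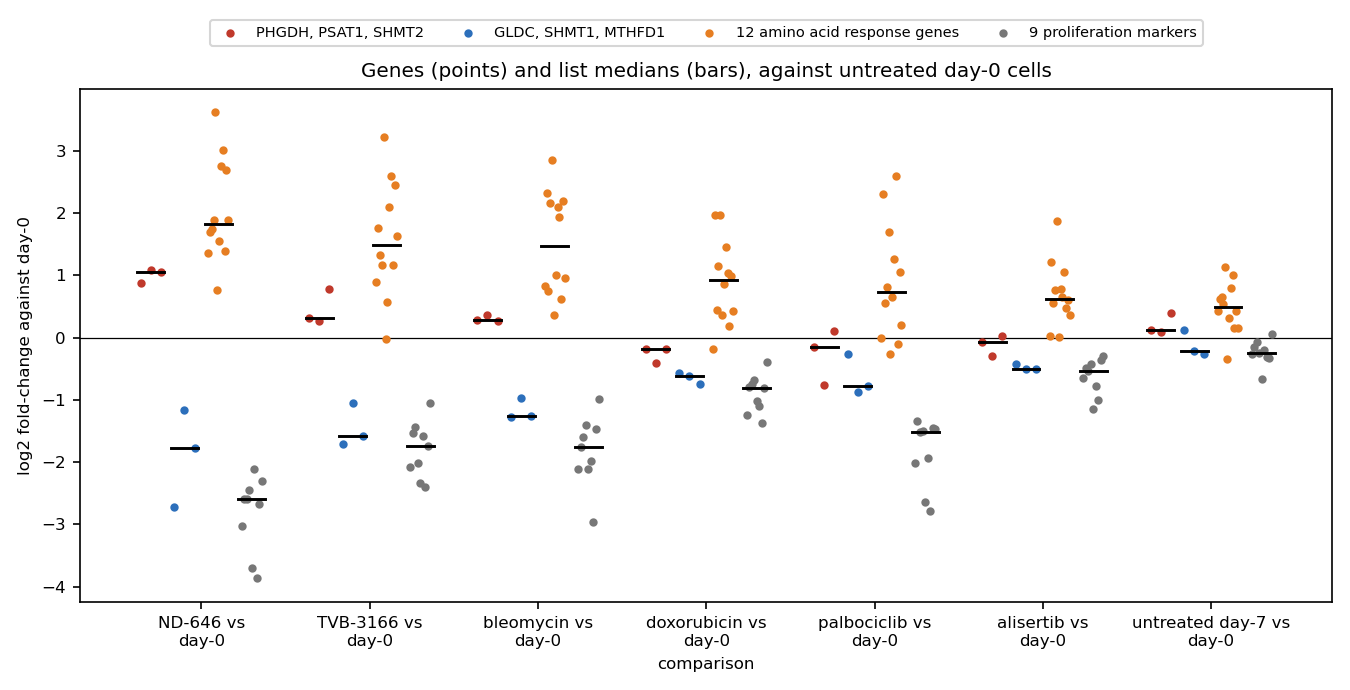
Log2 fold-change against untreated day-0 cells (vertical axis) in each group (horizontal axis) for PHGDH, PSAT1 and SHMT2 (red), GLDC, SHMT1 and MTHFD1 (blue), 12 amino acid response genes (orange) and 9 proliferation markers (grey); points are genes and bars medians. The red and blue sets were split after their values were seen; with bleomycin the amino acid response has a median of 1.47 and the red genes lie at 0.36 or less.

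Of 18 other folate enzymes and carriers measured, 4 rose and 5 fell with ND-646 against day 0, and 5 rose and 7 fell with TVB-3166. These counts lie near the shares over all genes (19.1% higher and 18.8% lower with ND-646, 27.4% and 27.7% with TVB-3166), which are also the background of the lists that follow. TYMS, which makes thymidylate with folate, fell by 3.56 and 2.45 on the log2 scale, and GGH, which trims the glutamate tail of folates, by 1.66 and 1.05. TYMS fell with each of the other 4 drugs as well, by 1.21 to 2.79. The fall of MTHFD1 thus stood beside a fall of TYMS, while SHMT2 and MTHFD2 did not fall with the lipogenesis inhibitors.

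Of 8 genes of the methionine cycle and transsulfuration, 3 rose and 2 fell with ND-646 and with TVB-3166. CBS, which joins serine to homocysteine, rose by 2.59 and 2.19, and CTH, the next enzyme, by 1.00 and 0.77. MTRR and AHCY, of the methionine cycle, fell by 0.78 and 0.60 with ND-646 and by 0.46 and 0.61 with TVB-3166. Their means were below day 0 with each of the other 4 drugs as well. AHCY was at 345 CPM at day 0, 230 with ND-646 and 212 with doxorubicin. Against day 7 the rise of CBS was smaller, 1.55 with ND-646 and 1.15 with TVB-3166. Of 9 serine and glycine carriers 3 rose and 2 fell in both. SLC6A9, a glycine transporter of the cell surface, rose by 1.11 and 1.00, and SLC1A5, a carrier of neutral amino acids, by 0.78 and 0.46. SFXN1, the mitochondrial serine carrier, fell by 0.96 and 0.80, and SFXN2 by 1.35 and 0.89. Both also had means below day 0 with each of the other 4 drugs. Those of SFXN1 were 134 to 181 CPM, against 230 at day 0. SFXN2 was at 18.7 CPM at day 0, 7.40 with ND-646, 4.82 with bleomycin and 7.68 with doxorubicin. Of the enzymes that consume serine, 8 of 9 could be tested with ND-646 and with TVB-3166. SPTLC3 and SPTLC2, subunits of the enzyme that opens sphingolipid synthesis, rose by 1.44 and 1.18 with ND-646 and by 1.38 and 1.02 with TVB-3166. SPTLC3 was near the floor, at a mean of 0.867 CPM at day 0 and 2.38 with ND-646, and was highest with palbociclib, at 4.12. PTDSS1, which makes phosphatidylserine, fell by 1.099 with ND-646 and 1.23 with TVB-3166. Against the other 4 inducers SLC6A9 (0.83), SLC1A5 (0.75), SLC1A4 (0.70), CBS (1.19) and SPTLC2 (0.83) were higher in the lipogenesis inhibitors. In that contrast 3 of the 9 carriers were called higher and 1 lower. Of the 8 methionine cycle and transsulfuration genes 3 were called higher and 1 lower. Of the 9 enzymes that consume serine 3 were called higher and 2 lower. Among the 18 other folate enzymes and carriers 3 were called higher and 7 lower. Over all genes 26.1% were called higher and 24% lower.

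Among the 9 enzymes, levels over the 24 libraries ran together in a pair of sets. The correlation of log2 CPM was 0.951 between PHGDH and SHMT2, 0.882 between PSAT1 and SHMT2 and 0.799 between PHGDH and PSAT1. It was 0.937 between SHMT1 and MTHFD1, 0.923 between GLDC and SHMT1 and 0.819 between GLDC and MTHFD1. Between the sets it was negative, −0.827 for GLDC with SHMT2 for example. The 24 libraries fall into 8 groups, so these coefficients describe the group pattern and carry no test.

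Among 11612 genes of sufficient level, the pattern of GLDC was most like those of RFC3 and ZWILCH (Pearson r = 0.978 each) and GASK1B (0.976) over the 24 libraries. PHGDH was most like HAUS4 (0.965), SHMT2 (0.951) and PACSIN3 (0.950), so that another of the 9 enzymes was its second nearest gene. SHMT2 was most like GARS1 and ARPC1B (0.953 each) and SARS1 (0.951), GARS1 and SARS1 being the ligases that charge tRNA with glycine and serine. PSAT1 was most like ANAPC16 (0.933), LYRM1 (0.922) and PYROXD1 (0.920). SHMT1 was most like NUP93 (0.991), MMACHC (0.976) and LRR1 (0.974), and MTHFD1 like CNOT9 (0.980), FOXRED2 (0.973) and RRM1 (0.971), a subunit of ribonucleotide reductase. The genes with little change had weaker neighbours, DECR1 for PSPH (0.853), MTX2 for MTHFD2 (0.847) and TBC1D4 for MTHFD1L (0.815).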

How the data were processed

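RNA-seq had been run on 24 SKBR3 libraries, and GEO's labels gave each library its group and replicate number. The authors aligned reads with HISAT2 and assembled and counted them with StringTie on GRCh37, and the deposited table holds whole-number read counts per gene, not normalized, with a lowest count of 1. The paper names a total RNA kit and the labels an mRNA kit, and whether counting used strand is not given in the sources used here.

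The test was that of edgeR 4.0.16, run in R 4.3.3. Each comparison used its own libraries, filterByExpr, TMM factors, glmQLFit and glmQLFTest, 2-sided, with Benjamini-Hochberg adjustment over all genes tested and a call at an adjusted p under 0.05. The lipogenesis inhibitors were set against the other inducers as a contrast in the 18 drug-treated libraries. In all, 15 comparisons were made. Levels are CPM with TMM factors of all 24 libraries. Levels between genes were divided by the exon length of the MANE Select transcript. Correlations used log2 CPM with a prior count of 2. Positions and promoter windows come from GRCh37 with GENCODE annotation. The code was tested on simulated counts. Totals of 29405121 to 44316330 counts limit precision little for these genes, whose lowest level was 7.75 CPM.

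The 9 genes and the lists were chosen with earlier results of these data known. All 9 genes are described. Of each other list at most 4 called genes per comparison are named, those with the largest log2 fold-change, plus GCSH and DLD. Some genes of the folate list that this rule names are not reported here. The split of the 9 genes into risers and fallers was made after their values were seen. Replicates of a group differed beyond sampling noise. Each was counted as 1 sample, though no label says that they came from separate cultures.

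Alternatives were DESeq2 1.42.0, RLE size factors in edgeR, no filter, a floor of 10 counts in each library, a joint fit of the 24 libraries, the replicate number as a block, the study's own kind of rule (a fold-change of at least 2 with an unadjusted p under 0.05), and leaving out each library. Whether same-numbered libraries deviate together was checked by correlating their deviations from the group means over all genes. All 3 correlations exceeded 0.1 for TVB-3166 with ND-646 (0.213 to 0.38). They also did so for bleomycin with day-7 (0.107 to 0.142) and for alisertib with day-7 (0.105 to 0.218). The main fits used no block in any comparison, and for these comparisons the fits with the block are given beside them. In the other comparisons at least 1 correlation was lower, though others could be higher, as for bleomycin with day-0 (0.238, 0.029 and 0.313). The cut at 0.1 is a working rule, and no label says that same-numbered libraries belong together.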

Additional observations from a re-analysis of the deposited data

Results flagged for a closer look

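In the direct contrast of ND-646 and TVB-3166 with the other 4 inducers, 8 of the 9 enzymes differed by the edgeR test (adjusted p under 0.05). The log2 fold-changes were 0.97 for PHGDH, 0.87 for PSAT1, 0.64 for SHMT2 and 0.20 for MTHFD2, and −1.57 for GLDC, −0.84 for SHMT1, −0.35 for MTHFD1 and −0.29 for MTHFD1L. Between TVB-3166 and ND-646 the tested difference was that of GLDC, 0.99.

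Some enzymes were called in opposite directions by different drugs against the same untreated cells, with libraries that did not overlap the untreated ones. These differences between drugs were not tested pair by pair. PHGDH was at 1.09 with ND-646 against −0.41 with doxorubicin and −0.76 with palbociclib relative to day 0. Relative to day 7 it was at 1.02 with ND-646, −0.48 with doxorubicin and −0.83 with palbociclib. PSAT1 was at 0.67 with ND-646 and −0.55 with doxorubicin relative to day 7, and SHMT2 at 0.77 and −0.28. MTHFD1L was at 0.26 with palbociclib and −0.42 with TVB-3166 relative to day 0. Several of these calls were lost when 1 library was left out. These were PHGDH and SHMT2 with doxorubicin, MTHFD1L with palbociclib, and PHGDH, PSAT1 and SHMT2 with ND-646 against day 7. PHGDH with palbociclib, PHGDH with ND-646 against day 0, PSAT1 with doxorubicin and MTHFD1L with TVB-3166 kept theirs. Groups of 3 libraries are too small to test single libraries as outliers.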

How the results depend on the processing

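Of 135 pairs of enzyme and comparison, 67 were called, none of these changed direction under any alternative fit or filter run, and 50 kept an adjusted p under 0.05 in all of them. Of the 17 that lost it somewhere, the cause was not tested. With a call rule of a fold-change of at least 2 and an unadjusted p under 0.05, 3 enzymes passed with TVB-3166 against day 0, 3 with ND-646 against day 7, 2 with TVB-3166 against day 7, 1 with bleomycin against day 7 and 1 in the lipogenesis inhibitors against the other inducers. By that rule 0 passed with doxorubicin, palbociclib or alisertib against either untreated group or between TVB-3166 and ND-646. Against day 0, GLDC and SHMT1 passed it with ND-646 and with bleomycin. MTHFD1, PHGDH and PSAT1 also passed it with ND-646. DESeq2 called 5 enzymes with bleomycin against day 0 and 3 between TVB-3166 and ND-646. Without a filter on low counts 0 were called between TVB-3166 and ND-646. One fit to all libraries called 3 with doxorubicin and 3 with palbociclib against day 0, and 4 between TVB-3166 and ND-646.

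With the replicate number as a block, 7 enzymes were called with bleomycin and 4 with alisertib against day 7, where same-numbered libraries deviated together. In comparisons short of that working rule, the block called 5 with bleomycin against day 0 and 7 with palbociclib against day 7. Elsewhere it moved no count by more than 1.5 times. Leaving out 1 library gave 3 to 5 calls with doxorubicin and 3 to 5 with palbociclib against day 0, 3 to 7 with ND-646 and 1 to 3 with alisertib against day 7, and 0 to 4 between TVB-3166 and ND-646. The share of all genes called moved over the same libraries, from 19.6% to 55% with ND-646 and from 7.68% to 20.1% with alisertib against day 7. Over all genes, 80 were called between day 7 and day 0 by edgeR, 1120 by DESeq2, 1263 with the block, 441 with one fit to all libraries and 0 without the filter. Between TVB-3166 and ND-646 the counts were 98, 762 and 310, then 1268 and 32, and 1518 without ND-646 replicate 1. Leaving out any 1 of the other libraries gave 0 there. The nearest genes by pattern changed with the measure: by Spearman correlation WDR12 was nearest to GLDC, and SHMT2 to PHGDH. With 3 libraries a group, a single library can decide a call, and the lowest level of any of the 9 enzymes was 7.75 CPM.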
